A study of Mus musculus with 12 samples.

Results

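The cytokine genes Il1a, Il1b, Il18, Tnf and Il10, the IL-1 receptor antagonist gene Il1rn, the TNF receptor genes Tnfrsf1a and Tnfrsf1b and the inflammasome genes Casp1 and Nlrp3 are described here. They were taken by name, as 10 of the 18193 genes on the array, and each was read from its probe set with the highest mean over the arrays. CD11b+ cells, a gate that takes microglia and other myeloid cells, had been sorted from the hippocampus, with 5000 to 10000 cells per animal, and each of the 12 Affymetrix arrays held the RNA of 1 mouse. The 4 groups, with 3 mice each, were Balb/c mice given 10 Gy of X-rays, Balb/c mice given sham irradiation, C57BL/6 mice given 10 Gy and C57BL/6 mice given sham irradiation. The mice of all 4 groups were females, 6.5 weeks old at treatment, whose cells were taken 1 month later, at 10.5 weeks. The dose was a single one to a 1 cm circle over the forebrain under ketamine and xylazine, and no transgene or Cre allele is named for any group. The comparisons ask what irradiation of the brain changes in these cells and whether the strains differ. All values are log2 microarray signal on a scale that ran from 2.23 to 16.2, so that a step of 1 is a doubling.

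IL-1 alpha and IL-1 beta act on the same receptor, which signals through MyD88, IRAK kinases and TRAF6, and the antagonist encoded by Il1rn blocks that receptor. IL-1 beta and IL-18 are made as precursors that caspase-1 cleaves after an inflammasome, such as the one built on NLRP3 and the adaptor ASC, has formed, whereas the IL-1 alpha precursor is already active. TNF acts through TNFR1 (Tnfrsf1a), which carries a death domain and is found on most cells, and TNFR2 (Tnfrsf1b), found mainly on immune and endothelial cells. IL-10 restrains these cytokines through STAT3, which also induces the feedback inhibitor SOCS3. Microglia are a main source of IL-1, TNF and IL-18 in the brain. Transcript levels do not show precursor cleavage or secretion.

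The labels were checked on a few genes and marker lists. Cdkn1a, a p53 target, was at 12.57 ± 0.16 in irradiated Balb/c and 9.46 ± 0.15 in sham Balb/c arrays, and at 12.19 ± 0.15 in irradiated C57BL/6 and 7.84 ± 0.47 in sham C57BL/6 arrays (mean ± SD, n = 3). Nnt, which is truncated in C57BL/6J mice, lay between 12.2 and 12.7 on Balb/c arrays and between 10.8 and 11.2 on C57BL/6 arrays. The summed signal of 7 microglial markers, among them P2ry12, Tmem119, Cx3cr1 and Sall1, lay between 16.4 and 16.7 on all arrays. Its mean was 16.53 ± 0.06 in irradiated against 16.65 ± 0.07 in sham Balb/c mice, and 16.44 ± 0.12 in irradiated against 16.60 ± 0.05 in sham C57BL/6 mice. An earlier analysis of these data had found that 2 arrays stand apart, irradiated Balb/c replicate 2 and irradiated C57BL/6 replicate 3. The log2 difference between 3' and 5' probe sets of Actb and Gapdh, which grows as amplified RNA gets shorter, was 3.70 to 4.82 on irradiated Balb/c arrays, with the highest value in replicate 2, 3.54 to 3.81 on sham Balb/c arrays, 3.55 to 3.77 on irradiated C57BL/6 arrays and 3.50 to 3.75 on sham C57BL/6 arrays.

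The promoters of 4 of the genes are shown because 3 of them, Il1a, Tnf and Tnfrsf1b, passed a test described below, and the fourth, Il1b, came nearest to passing among the other cytokines. Each window is RefSeq sequence of the mouse reference build GRCm38.p6, given 5′ to 3′ on the strand of the gene. It runs from 250 bases before to 50 bases after an annotated start. For Tnf and Tnfrsf1b that start is the 5′ end of the gene coordinates given below. For Il1a and Il1b it lies inside those coordinates. All 4 genes lie on the minus strand, Il1a at chr2:129309923-129310222, Il1b at chr2:129371090-129371389, Tnf at chr17:35201958-35202257 and Tnfrsf1b at chr4:145246821-145247120. Capitals mark matches to the TATA box TATAAA or to the AP-1 motif TGANTCA on either strand.
Il1a: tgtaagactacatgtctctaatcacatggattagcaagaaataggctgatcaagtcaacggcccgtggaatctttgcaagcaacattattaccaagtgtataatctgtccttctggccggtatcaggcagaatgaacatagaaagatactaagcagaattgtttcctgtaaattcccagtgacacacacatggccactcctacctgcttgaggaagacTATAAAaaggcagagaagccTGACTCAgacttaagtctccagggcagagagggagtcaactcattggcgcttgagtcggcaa
Il1b: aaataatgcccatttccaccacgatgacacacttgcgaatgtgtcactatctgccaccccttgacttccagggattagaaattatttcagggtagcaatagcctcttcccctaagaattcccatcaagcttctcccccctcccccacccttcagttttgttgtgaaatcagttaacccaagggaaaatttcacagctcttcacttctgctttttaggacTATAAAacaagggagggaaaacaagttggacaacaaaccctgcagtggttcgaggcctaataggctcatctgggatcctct
Tnf: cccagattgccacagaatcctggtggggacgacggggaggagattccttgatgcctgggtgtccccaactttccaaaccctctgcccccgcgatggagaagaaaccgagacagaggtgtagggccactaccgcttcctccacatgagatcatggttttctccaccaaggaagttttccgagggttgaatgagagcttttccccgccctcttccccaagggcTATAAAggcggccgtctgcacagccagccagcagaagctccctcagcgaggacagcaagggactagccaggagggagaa
Tnfrsf1b: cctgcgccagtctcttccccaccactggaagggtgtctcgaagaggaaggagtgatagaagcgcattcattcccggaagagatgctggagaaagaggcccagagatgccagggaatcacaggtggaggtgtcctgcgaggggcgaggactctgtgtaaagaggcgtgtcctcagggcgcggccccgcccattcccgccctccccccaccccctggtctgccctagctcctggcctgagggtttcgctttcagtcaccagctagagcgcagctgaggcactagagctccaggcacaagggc
The windows of Il1a, Il1b and Tnf each held TATAAA on the strand of the gene. Its first base was at -32, -31 and -29 from the annotated start used for the window, counting the base just before it as -1. Of all 32851 promoter windows, 1.99% held TATAAA on that strand with the first base 40 to 20 bases before the start. Anywhere on either strand, 13.6% held it. On the strand opposite to the gene, the Il18 window held it at -175 and an Il1rn window at 15. The Il1a window also held TGACTCA at -12, an Il1rn window held an AP-1 match at -141, and 7.81% of all windows held one. A kappa B-type motif of 10 letters, GGG and TTCC with NNN between them, was searched on both strands as well. It matched in the windows of Il1rn among the 9 members with a window, and in 5.56% of all windows. The Tnfrsf1b window held none of these motifs, nor did those of Tnfrsf1a, Casp1 and Nlrp3. A match describes these letters and is no evidence that a factor binds.

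Of the 10 genes, 8 passed the filter for a level above 5 in at least 3 arrays and were tested among 9120 genes with limma, with p-values adjusted over all of them and a call at an adjusted p under 0.05. The 8 were above 5 on all 12 arrays, and Il1rn and Il10 were not above it on any. Il1a differed between the strains and showed no call after irradiation, Tnf rose and Tnfrsf1b fell after irradiation in the average of the strains, and Il1b had the largest SD pooled over the groups. Il18, Casp1, Nlrp3 and Tnfrsf1a were called in none of the 6 comparisons. The plot of the members by array shows these patterns.

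**Figure D1:**
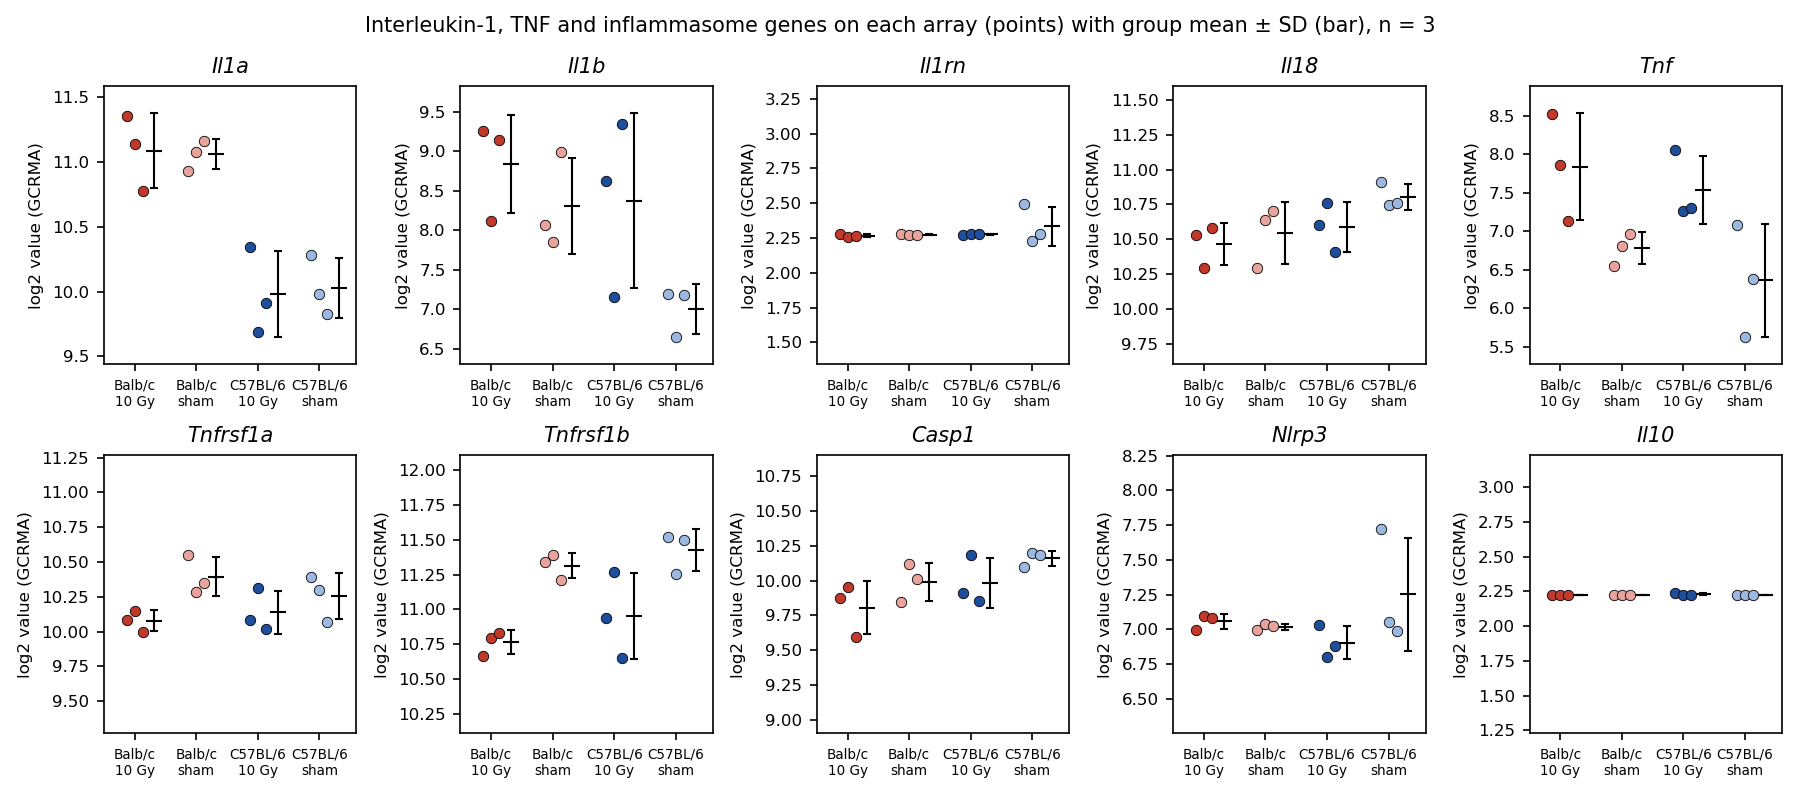
Log2 values (GCRMA, vertical axes) of the 10 genes on each array, with the group mean ± SD beside the points (n = 3 per group). Il1a lies near 11 in both Balb/c groups and near 10 in both C57BL/6 groups, Tnf is higher and Tnfrsf1b lower in irradiated mice, and Il1rn and Il10 lie at the bottom of the scale. Each panel has its own vertical range.

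Il1a, which encodes the alarmin IL-1 alpha, was the member that set the strains apart. It lies at chr2:129299609-129310186 in GRCm38.p6, beside Il1b on the same chromosome, and has 1 probe set on the array. Irradiated Balb/c mice had 11.35, 11.14 and 10.78, against 10.35, 9.69 and 9.91 in irradiated C57BL/6 mice. Sham Balb/c mice had 10.93, 11.08 and 11.16, against 10.28, 9.98 and 9.83 in sham C57BL/6 mice. Every Balb/c array was thus above every C57BL/6 array under either treatment. The group means were 11.09 ± 0.29 in irradiated Balb/c, 11.06 ± 0.12 in sham Balb/c, 9.98 ± 0.33 in irradiated C57BL/6 and 10.03 ± 0.23 in sham C57BL/6 mice (SD, n = 3).

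In irradiated mice Il1a was higher in Balb/c than in C57BL/6 by 1.11 ± 0.20 (log2 difference ± SE), a 2.15-fold difference with a 95% interval of 1.59 to 2.92 (limma, adjusted p = 0.00500). In sham mice the difference was 1.03 ± 0.20, or 2.04-fold with an interval of 1.51 to 2.77 (limma, adjusted p = 0.00659). It was the 1 of 8 members called in each of these comparisons, where 4.38% of all genes tested were called higher in irradiated and 5.22% in sham Balb/c mice. In sham mice the call stood under all 23 alternatives fitted. In irradiated mice it stood under 21 of 23, and was lost with the 3' minus 5' difference as a covariate (adjusted p = 0.0605) and without the 2 arrays that stand apart (adjusted p = 0.0632), in a range of adjusted p from 0.00167 to 0.0632. The fits with other probe sets and with a floor on low values left the Il1a values unchanged, since it has 1 probe set and no value that low. A difference between strains in array signal cannot be told apart here from a difference in sequence under the probes. Some marker lists also differed between the strains. Summed border-associated macrophage markers were 13.4 to 13.8 in irradiated Balb/c against 14.1 to 14.5 in irradiated C57BL/6 mice, and 12.8 to 13.1 in sham Balb/c against 13.1 to 14.3 in sham C57BL/6 mice, with 1 of 7 called lower under each treatment. B cell markers, 3 on the array with Cd79a and Ms4a1 under the filter everywhere, summed to 5.22 to 5.62 in irradiated Balb/c against 7.11 to 7.93 in irradiated C57BL/6 mice, and to 5.60 to 5.99 in sham Balb/c against 7.74 to 8.07 in sham C57BL/6 mice, and the 1 tested was called lower under both treatments. T and NK cell markers, 6 of 7 under the filter on every array, overlapped in irradiated mice and summed to 5.07 to 5.11 in sham Balb/c against 6.02 to 7.24 in sham C57BL/6 mice. Of 5 neutrophil markers tested, 2 were called lower in sham Balb/c mice, where 5.24% of all genes were, and 0 in irradiated mice. Their median difference was -1.93 in sham and 0.70 in irradiated mice. Neutrophil sums were 10.4 to 10.6 in sham Balb/c against 10.6 to 11.9 in sham C57BL/6 mice and overlapped in irradiated mice. The part of these cells in Il1a and in the strain differences below was not tested.

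Irradiation left Il1a within the spread between mice. The change was 0.03 ± 0.20 in Balb/c and -0.05 ± 0.20 in C57BL/6 mice (log2 ± SE, limma adjusted p = 0.949 and 0.911). The 95% interval of the average change, from -0.32 to 0.30 log2, is a fold of 0.802 to 1.23. From high to low the groups ran irradiated Balb/c, sham Balb/c, sham C57BL/6 and irradiated C57BL/6. Of the neighbours in that order, sham Balb/c and sham C57BL/6 differed by the test, and the 2 groups of each strain did not differ beyond their spread.

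Il1b, which encodes the precursor of IL-1 beta, had the largest pooled spread among the 8 members, although Tnf varied more in irradiated Balb/c and in sham C57BL/6 mice. Irradiated Balb/c mice had 9.25, 8.12 and 9.15, against 8.07, 7.85 and 9.0 in sham Balb/c mice. Irradiated C57BL/6 mice had 8.63, 7.16 and 9.34, against 7.19, 6.64 and 7.19 in sham C57BL/6 mice. The Balb/c groups overlapped, and in C57BL/6 the second irradiated mouse lay among the sham mice while the other two lay above them. Replicate 2 was the lowest mouse in each of the 4 groups. The SD pooled over the groups was 0.72, larger than that of 96.5% of the genes tested, whose median was 0.22.

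The Il1b change after irradiation was 0.53 ± 0.52 in Balb/c (limma, adjusted p = 0.586) and 1.37 ± 0.52 in C57BL/6 mice (limma, adjusted p = 0.161), with a 95% interval in C57BL/6 of 0.23 to 2.51 log2. The average of the strains was 0.95 ± 0.36, or 1.93-fold (limma, adjusted p = 0.103). None of these passed, although the unadjusted p was 0.0227 in C57BL/6 and 0.0246 for the average. Without irradiated C57BL/6 replicate 2 the change was 1.98 in C57BL/6 (adjusted p = 0.0351, in a range of 0.0351 to 0.459 over 23 alternatives) and 1.26 for the average (adjusted p = 0.0173, in a range of 0.0173 to 0.255 over 22), and both were called. Without irradiated C57BL/6 replicate 3, one of the arrays that stand apart, it was 0.89 in C57BL/6 (adjusted p = 0.459) and 0.71 for the average (adjusted p = 0.207), and neither was called. The change in Balb/c minus that in C57BL/6 was -0.84 ± 0.73 (limma, adjusted p = 0.783), so a difference between the strains in this change was not shown.

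Between strains, Balb/c minus C57BL/6, Il1b was at 0.46 ± 0.52 after irradiation (limma, adjusted p = 0.660) and at 1.30 ± 0.52 after sham treatment (limma, adjusted p = 0.156), and neither passed. The difference after sham treatment was called in 1 of 23 alternatives, that with the replicate number as a block (limma, adjusted p = 0.0227). The difference after irradiation turned to -0.14 without irradiated C57BL/6 replicate 2 and was 0.95 without replicate 3, so leaving out 1 array turned its direction. All 3 sham Balb/c mice, from 7.85 to 9.0, lay above all 3 sham C57BL/6 mice, from 6.64 to 7.19. The irradiated groups overlapped. The probe set is the only one for Il1b on the array, and its gene lies at chr2:129364569-129371164.

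Il1rn, the gene of the IL-1 receptor antagonist, stayed at the bottom of the scale. Its brightest probe set had 2.28, 2.26 and 2.26 in irradiated Balb/c, 2.28, 2.27 and 2.27 in sham Balb/c, 2.27, 2.28 and 2.28 in irradiated C57BL/6 and 2.49, 2.23 and 2.28 in sham C57BL/6 mice. Its other 2 probe sets lay between 2.23 and 2.27 on every array. At this signal the array gives no level to compare, and neither a rise nor its absence can be read for the antagonist.

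Il18, the gene of the IL-18 precursor, had 10.53, 10.29 and 10.58 in irradiated Balb/c mice, against 10.29, 10.64 and 10.70 in sham Balb/c mice. In irradiated C57BL/6 mice it had 10.60, 10.76 and 10.41, against 10.91, 10.74 and 10.76 in sham C57BL/6 mice. The treatments overlapped in Balb/c, and in C57BL/6 the second irradiated mouse reached the sham values. The average change after irradiation was -0.15 ± 0.10 (limma, adjusted p = 0.355), with a 95% interval of -0.37 to 0.08, and an average rise of Il18 above 1.06-fold lies outside that interval. Within the strains the interval reached 1.07-fold in C57BL/6 and 1.18-fold in Balb/c mice.

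Tnf, the gene of tumour necrosis factor, was higher after irradiation. It lies at chr17:35199367-35202007 and has 1 probe set. Irradiated Balb/c mice had 8.53, 7.86 and 7.13, against 6.55, 6.81 and 6.97 in sham Balb/c mice. Irradiated C57BL/6 mice had 8.05, 7.26 and 7.30, against 7.08, 5.62 and 6.38 in sham C57BL/6 mice. All irradiated mice of either strain lay above all sham mice, by a margin that was small at its narrowest, 7.13 in the lowest irradiated mouse against 7.08 in the highest sham mouse.

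The Tnf change was 1.06 ± 0.40 in Balb/c (limma, adjusted p = 0.147) and 1.18 ± 0.40 in C57BL/6 mice (limma, adjusted p = 0.130), and neither passed within its strain. The average of the strains, 1.12 ± 0.29, was called as a 2.18-fold rise with a 95% interval of 1.41 to 3.37 (limma, adjusted p = 0.0248). Both within-strain comparisons share their arrays with the average. The change in Balb/c minus that in C57BL/6 was -0.11 ± 0.57 (limma, adjusted p = 0.971), with a wide interval of -1.37 to 1.14. The strains themselves were 0.30 ± 0.40 apart after irradiation and 0.42 ± 0.40 apart after sham treatment, Balb/c minus C57BL/6, and neither passed (limma, adjusted p = 0.722 and 0.611).

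The Tnf rise held in 16 of 22 alternatives, with log2 changes from 0.94 to 1.30 and adjusted p from 0.0142 to 0.0875. Among these, the fits with other probe sets and with a floor on low values left the Tnf values unchanged. Tnf has 1 probe set and no value that low. The call of the Tnf rise was lost in the fits listed next. Its call was lost without irradiated C57BL/6 replicate 1 (adjusted p = 0.0543), without sham Balb/c replicate 1 (0.0593) or 2 (0.0525), with no filter (0.0875), with the 3' minus 5' covariate (0.0633) and without the 2 arrays that stand apart (0.0699). Markers of monocytes, which also carry CD11b and make TNF, moved with it. Of 8 listed, 6 are on the array, none is under the filter on every array, and 4 of the 6 were called higher in the average of the strains, where 7.72% of all genes were. Their summed signal was 11.7 to 12.0 in irradiated against 10.6 to 10.8 in sham Balb/c mice, and 12.0 to 12.2 in irradiated against 10.4 to 11.5 in sham C57BL/6 mice. Of the 7 border-associated macrophage markers 6 were called higher in that average, with sums of 13.4 to 13.8 in irradiated against 12.8 to 13.1 in sham Balb/c mice and of 14.1 to 14.5 in irradiated against 13.1 to 14.3 in sham C57BL/6 mice. Of the 5 astrocyte markers 4 were called higher, with sums of 14.2 to 14.8 in irradiated against 13.3 to 13.8 in sham Balb/c mice and of 13.9 to 14.4 in irradiated against 13.1 to 13.7 in sham C57BL/6 mice. T and NK cell sums were 7.78 to 8.67 in irradiated against 6.02 to 7.24 in sham C57BL/6 mice and overlapped in Balb/c. The part of these cells in the Tnf result was not tested. The neutrophil marker sums were 10.7 to 12.1 in irradiated against 10.4 to 10.6 in sham Balb/c mice and overlapped in C57BL/6, at 10.6 to 11.5 against 10.6 to 11.9, with Cxcr2 and Mmp8 under the filter on every array. Of the 5 neutrophil markers tested, 2 were called higher in Balb/c, where 3.26% of all genes were, and 0 in C57BL/6 mice. In the average of the strains 2 were called higher and 1 lower, where 7.72% and 8.15% of all genes were. Their part was not tested. The 18S ribosomal RNA control signal was 10.5 to 11.6 in irradiated against 11.9 to 12.3 in sham Balb/c mice and 11.6 to 11.8 in irradiated against 12.1 to 12.3 in sham C57BL/6 mice, and its part was not tested either. Of the 7 microglial markers 1 was called lower in the average of the strains, where 8.15% of all genes were, and their median change was -0.16. These marker sums and control signals belong to the same arrays as every irradiation change given below. In a sorted bulk sample such as these, fewer or more cells of a type and less or more RNA per cell cannot be told apart.

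Tnfrsf1b, the gene of TNFR2, was lower after irradiation. It lies at chr4:145212368-145246870. Irradiated Balb/c mice had 10.67, 10.79 and 10.83, against 11.34, 11.39 and 11.21 in sham Balb/c mice. Irradiated C57BL/6 mice had 10.94, 11.27 and 10.65, against 11.52, 11.26 and 11.50 in sham C57BL/6 mice. The Balb/c groups did not overlap, while in C57BL/6 the second irradiated mouse reached the lowest sham mouse.

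The average change of Tnfrsf1b was -0.51 ± 0.11, a fold of 0.701 with a 95% interval of 0.595 to 0.826 (limma, adjusted p = 0.0109), and it was called in all 21 alternatives fitted, with adjusted p from 0.00382 to 0.0392. Within Balb/c the change was -0.55 ± 0.15 (limma, adjusted p = 0.0569) and within C57BL/6 -0.47 ± 0.15 (limma, adjusted p = 0.112), and neither was called. Without irradiated C57BL/6 replicate 2, or without replicate 3, the change in Balb/c was called (adjusted p = 0.0326 and 0.0349, in a range of 0.0326 to 0.190 over 22 alternatives), through the spread that the 4 groups share in the fit. Without replicate 2 that in C57BL/6, at -0.63, was called as well (adjusted p = 0.0393, in a range of 0.0393 to 0.352). The strains did not differ by a call, at -0.19 ± 0.15 in irradiated and -0.11 ± 0.15 in sham mice (limma, adjusted p = 0.525 and 0.736). A second probe set for the gene lay at the bottom of the scale, from 2.24 to 2.46, and so gives no check. With the mean of both probe sets, 1 of which is at the bottom, the change was smaller by construction, at -0.23 log2 (adjusted p = 0.0392).

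Tnfrsf1a, the gene of TNFR1, had 10.08, 10.15 and 10.00 in irradiated Balb/c mice, against 10.55, 10.28 and 10.35 in sham Balb/c mice. In irradiated C57BL/6 mice it had 10.09, 10.31 and 10.02, against 10.39, 10.30 and 10.07 in sham C57BL/6 mice. The Balb/c groups did not overlap and the C57BL/6 groups did. The change was -0.32 ± 0.13 in Balb/c (limma, adjusted p = 0.168) and -0.12 ± 0.13 in C57BL/6 mice (limma, adjusted p = 0.631), and -0.22 ± 0.09 on average (limma, adjusted p = 0.128). No alternative called it, and the test of a difference between the 2 receptors was not made.

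**Figure D2:**
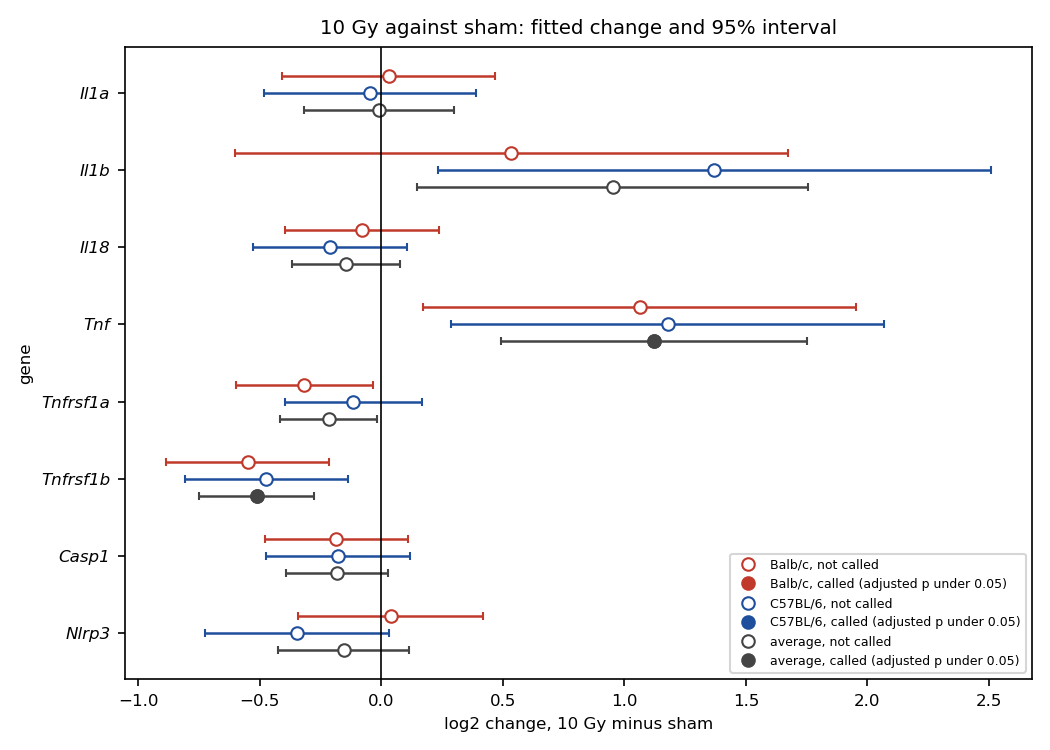
Fitted log2 change, 10 Gy minus sham (horizontal axis), with its 95% interval for the 8 members tested, in Balb/c, in C57BL/6 and averaged over the strains; filled points were called. Only the average of Tnf, at 1.12, and of Tnfrsf1b, at -0.51, is filled, and the intervals of Il1b and Tnf are the widest.

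Casp1, the gene of the protease that cleaves the IL-1 beta and IL-18 precursors, varied little. Irradiated Balb/c mice had 9.87, 9.95 and 9.59, against 9.84, 10.12 and 10.01 in sham Balb/c mice. Irradiated C57BL/6 mice had 9.91, 10.18 and 9.85, against 10.10, 10.20 and 10.18 in sham C57BL/6 mice. The treatments overlapped in both strains. The average change was -0.18 ± 0.09 (limma, adjusted p = 0.214), and its 95% interval of -0.39 to 0.03 leaves out an average rise above 1.02-fold. Within each strain the interval reached 1.08-fold.

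Nlrp3, the gene of the inflammasome sensor, had 6.99, 7.09 and 7.08 in irradiated Balb/c mice, against 7.0, 7.04 and 7.02 in sham Balb/c mice. In irradiated C57BL/6 mice it had 7.04, 6.80 and 6.88, against 7.72, 7.05 and 6.99 in sham C57BL/6 mice, where replicate 1 stood above the rest. The change was 0.04 ± 0.17 in Balb/c (limma, adjusted p = 0.925) and -0.35 ± 0.17 in C57BL/6 mice (limma, adjusted p = 0.266). Without sham C57BL/6 replicate 1 the C57BL/6 change was -0.11 (adjusted p = 0.602, in a range of 0.182 to 0.602 over 23 alternatives).

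Il10, the gene of the anti-inflammatory cytokine, was at 2.23 on 11 arrays and at 2.24 on irradiated C57BL/6 replicate 1. Its single probe set gave no level on any array, and no change can be read for it.

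Read together by comparison, 0 of 8 members were called in C57BL/6 and 0 of 8 in Balb/c, where limma called 3.67% and 6.15% of all 9120 genes. Of these, 2.21% and 3.26% were called higher and 1.46% and 2.89% lower. At an unadjusted p under 0.05, 3 of 8 members passed in each strain, against 21.3% of all genes in C57BL/6 and 22.8% in Balb/c. In the average of the strains 2 of 8 were called, 1 higher and 1 lower, against 15.9% of all genes, 7.72% higher and 8.15% lower, so with 8 members the share is not far from that of all genes. The median change of the 8 was -0.15 there, against -0.05 for all genes tested.

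A difference between the strains in the irradiation change was called for no member. limma called 0 of 8 for the change in Balb/c minus that in C57BL/6, with adjusted p from 0.697 to 0.995, and 0 had an unadjusted p under 0.05, where 0.0768% of all genes were called and 8.06% had such a p. Between strains, 1 of 8 was called in irradiated mice and 1 of 8 in sham mice, both times Il1a, against 8.97% and 10.5% of all genes called in either direction. Those called lower in Balb/c were 4.59% in irradiated and 5.24% in sham mice, and no member was among them.

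**Figure D3:**
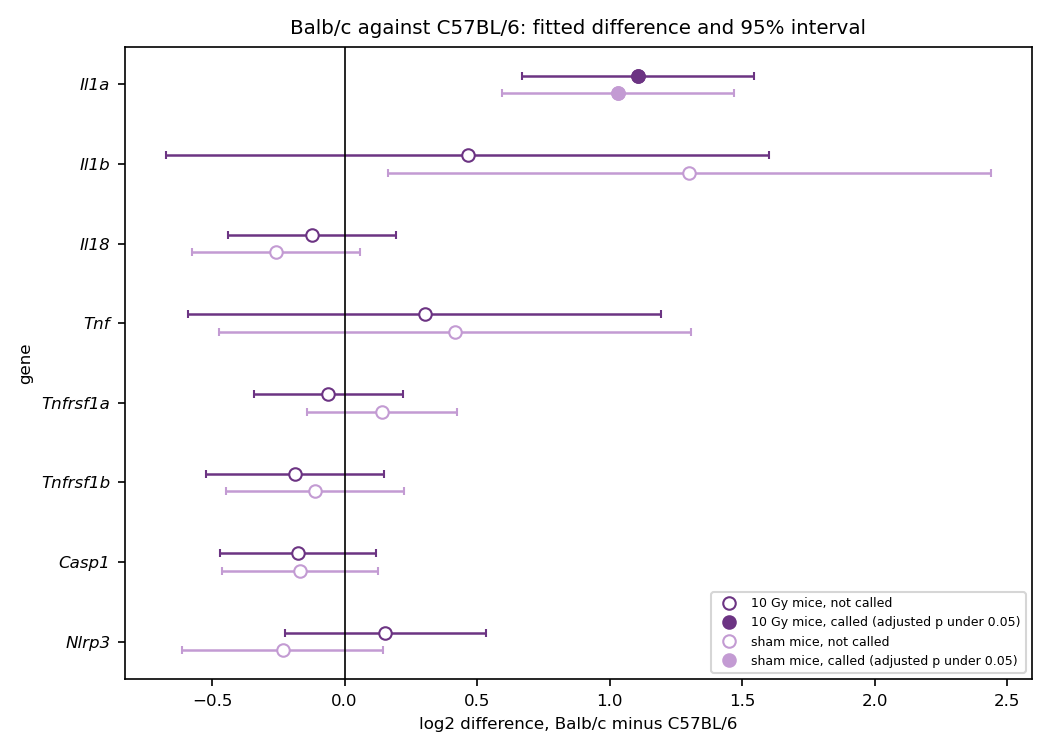
Fitted log2 difference, Balb/c minus C57BL/6 (horizontal axis), with its 95% interval for the 8 members tested, in 10 Gy mice and in sham mice; filled points were called. Il1a stands at 1.11 in irradiated and 1.03 in sham mice, and the intervals of the other members include 0 except that of Il1b in sham mice, which was not called.

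Further genes of the same pathways were taken from 4 lists of 55 genes, of which 47 are on the array and 32 passed the filter. Between strains all called genes of the lists were lower in Balb/c mice, 4 of 32 in irradiated and 5 of 32 in sham mice, and none was higher. Of all genes 4.59% and 5.24% were called lower there, and 4.38% and 5.22% higher. After irradiation the average of the strains had 2 of 32 higher and 7 lower, where 7.72% of all genes were called higher and 8.15% lower. Balb/c alone had 0 higher and 3 lower, and C57BL/6 alone 0 higher and 1 lower, where 2.89% and 1.46% of all genes were called lower. The median change of the 32 in the average was -0.12, against -0.05 for all genes. The test of a difference in the irradiation change between the strains called 0 of 32 (3 at an unadjusted p under 0.05).

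In the inflammasome list, 8 of 14 genes were tested. Pycard, which encodes the adaptor ASC that links NLRP3 to caspase-1, was lower in Balb/c mice. It had 11.14, 11.04 and 11.00 in irradiated Balb/c, against 12.10, 12.30 and 12.13 in irradiated C57BL/6 mice, and 11.48, 11.24 and 11.33 in sham Balb/c, against 12.56, 12.29 and 12.34 in sham C57BL/6 mice. The strains did not overlap, and the difference was -1.12 ± 0.11 in irradiated and -1.05 ± 0.11 in sham mice (limma, adjusted p = 1.20e-04 and 1.42e-04). It was called in each of 12 fits that left out 1 array and in the 11 other alternatives, of which the mean of all its probe sets, the others being at the bottom of the scale, gave -0.39 in irradiated and -0.49 in sham mice.

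P2rx7, the ATP-gated channel whose opening is a trigger of NLRP3, was also lower in Balb/c mice. Its values were 7.77, 6.54 and 6.90 in irradiated Balb/c, against 9.10, 9.81 and 9.29 in irradiated C57BL/6 mice, and 8.08, 7.76 and 7.28 in sham Balb/c, against 9.33, 9.29 and 9.42 in sham C57BL/6 mice. The differences were -2.33 ± 0.31 and -1.64 ± 0.31 (limma, adjusted p = 7.10e-04 in irradiated and 0.00557 in sham mice). A second probe set gave smaller differences of the same sign, -1.04 in irradiated and -0.52 in sham mice, and the mean of all probe sets gave -1.12 and -0.72, both called. Ninj1, which ruptures the membrane of dying cells, was lower in sham Balb/c mice by -0.75 ± 0.17 log2 (limma, adjusted p = 0.0170), and 3 of its probe sets gave -0.75, -0.75 and -0.77. The call was lost without sham Balb/c replicate 3 (adjusted p = 0.0711), with no filter (0.0524) and in the fit of the compared groups alone (0.0869), in a range from 0.00495 to 0.0869. In irradiated mice these probe sets gave -0.52, -0.75 and -0.86, and Ninj1 was not called. After irradiation Nek7, a kinase that binds NLRP3, was the only gene of this list called, at -0.31 ± 0.09 in the average of the strains (limma, adjusted p = 0.0336), and leaving out 1 array ended that call in 8 of 12 cases (adjusted p up to 0.0797, without sham Balb/c replicate 1).

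In the list of IL-1 and IL-18 receptors and signalling, 7 of 15 genes were tested. Il33, the gene of an IL-1 family alarmin made in the brain by astrocytes and oligodendrocytes, was lower in Balb/c mice. It had 6.82, 5.98 and 7.49 in irradiated Balb/c, against 8.99, 8.35 and 8.24 in irradiated C57BL/6 mice, and 5.20, 5.75 and 5.66 in sham Balb/c, against 8.73, 8.77 and 8.42 in sham C57BL/6 mice. The differences were -1.77 ± 0.34 and -3.10 ± 0.34 (limma, adjusted p = 0.00690 in irradiated and 1.33e-04 in sham mice). The call in irradiated mice was lost in the fit of those 2 groups alone (adjusted p = 0.0551) and with the 3' minus 5' covariate (0.153), in a range from 0.00216 to 0.153. Summed oligodendrocyte markers were 15.3 to 15.8 in irradiated Balb/c against 15.7 to 15.8 in irradiated C57BL/6 mice, and 14.9 to 15.8 in sham Balb/c against 15.5 to 15.9 in sham C57BL/6 mice. Summed astrocyte markers were 14.2 to 14.8 in irradiated Balb/c against 13.9 to 14.4 in irradiated C57BL/6 mice, and 13.3 to 13.8 in sham Balb/c against 13.1 to 13.7 in sham C57BL/6 mice. The part of these cells in the Il33 difference was not tested.

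Myd88, the adaptor of the IL-1 and IL-18 receptors, was lower in Balb/c mice by a smaller amount. It had 8.96, 9.09 and 8.96 in irradiated Balb/c, against 9.59, 9.54 and 9.42 in irradiated C57BL/6 mice, and 8.99, 8.91 and 8.98 in sham Balb/c, against 9.49, 9.42 and 9.44 in sham C57BL/6 mice. The differences were -0.52 ± 0.09 and -0.49 ± 0.09 (limma, adjusted p = 0.00530 in irradiated and 0.00585 in sham mice), and the call in irradiated mice was lost in the fit of those 2 groups alone (adjusted p = 0.0508, in a range of 9.76e-04 to 0.0508). In the average of the strains irradiation raised Il1rap, the accessory chain of the IL-1 receptor, by 0.31 ± 0.09 (limma, adjusted p = 0.0489) and lowered Traf6 by a log2 change of -0.39 ± 0.11 (limma, adjusted p = 0.0369). Each of these lost its call in 9 of 12 fits without 1 array, at adjusted p up to 0.106 for Il1rap, without irradiated C57BL/6 replicate 1, and up to 0.0821 for Traf6, without irradiated Balb/c replicate 3.

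**Figure D4:**
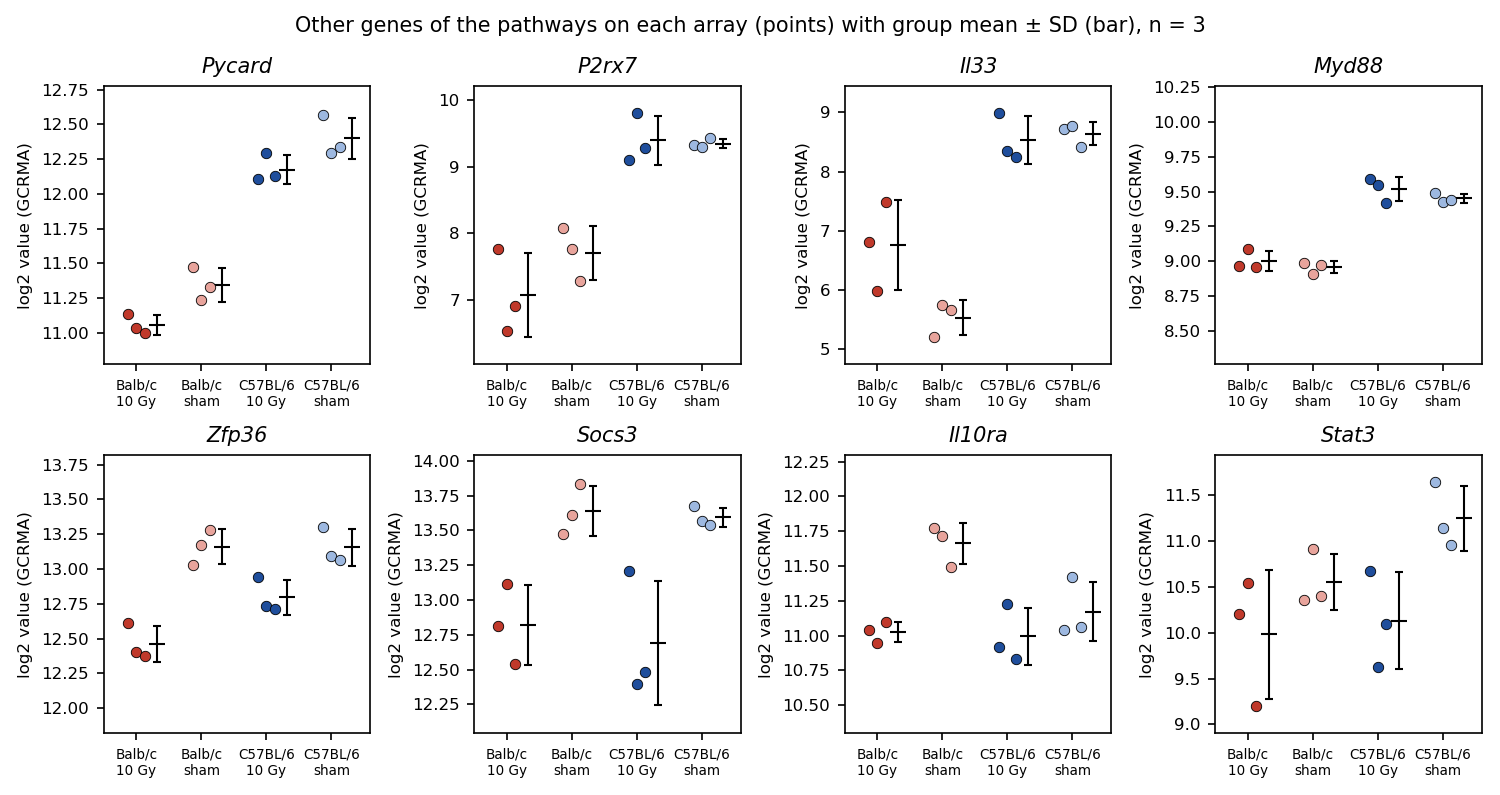
Log2 values (GCRMA, vertical axes) of 8 other pathway genes on each array, with the group mean ± SD beside the points (n = 3 per group). Pycard, P2rx7, Il33 and Myd88 (upper row) are lower in Balb/c mice, and Zfp36, Socs3, Il10ra and Stat3 (lower row) are lower after 10 Gy on average. Each panel has its own vertical range.

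In the list of TNF processing and receptor signalling, 11 of 17 genes were tested, and no strain difference was called. Zfp36 encodes tristetraprolin, which binds the Tnf messenger RNA and promotes its decay, and it was lower after irradiation. Irradiated Balb/c mice had 12.61, 12.40 and 12.38, against 13.03, 13.17 and 13.28 in sham Balb/c mice. Irradiated C57BL/6 mice had 12.94, 12.74 and 12.72, against 13.30, 13.09 and 13.07 in sham C57BL/6 mice. The groups did not overlap in either strain, and the average change was -0.53 ± 0.09 (limma, adjusted p = 0.00331), called in all 22 alternatives fitted. In Balb/c it was -0.70 ± 0.12 (limma, adjusted p = 0.00945), a call lost with the 3' minus 5' covariate (adjusted p = 0.0986, in a range of 0.00188 to 0.0986 over 23 alternatives).

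Zfp36 is also one of the 10 immediate early genes listed, a list chosen to mark handling of the tissue. Their summed signal was 16.2 to 16.7 in irradiated against 16.8 to 16.9 in sham Balb/c mice and 16.4 to 16.7 in irradiated against 16.7 to 16.9 in sham C57BL/6 mice, and 6 of the 10, Zfp36 included, were called lower in the average, where 8.15% of all genes were. The part of this list in the Zfp36 result was not tested. Cflar, which encodes an inhibitor of caspase-8 activation at TNFR1, was at -0.32 ± 0.09 (limma, adjusted p = 0.0369), but its probe sets disagreed: of those above 5 in every group mean, the next brightest gave -0.09 and the other 2 gave 0.44 and -0.43. Map3k7, the gene of the kinase TAK1, was at 0.33 ± 0.10 (limma, adjusted p = 0.0399). These 2 calls were lost in 10 and 9 of 12 fits without 1 array, at adjusted p up to 0.0812 and 0.0907, both without sham Balb/c replicate 1.

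In the IL-10 list, 6 of 9 genes were tested, and all 3 called in the average of the strains were lower. Socs3, the feedback inhibitor induced through STAT3, had 12.81, 13.11 and 12.54 in irradiated Balb/c mice, against 13.48, 13.61 and 13.84 in sham Balb/c mice. In irradiated C57BL/6 mice it had 13.21, 12.39 and 12.48, against 13.67, 13.57 and 13.54 in sham C57BL/6 mice. The groups did not overlap in either strain. The average change was -0.86 ± 0.15, a fold of 0.551 (limma, adjusted p = 0.00509), and was called in all 22 alternatives. The changes within Balb/c, -0.82 ± 0.21 (limma, adjusted p = 0.0493), and within C57BL/6, -0.90 ± 0.21 (limma, adjusted p = 0.0464), were each lost in 10 of 12 fits without 1 array, at adjusted p up to 0.153 without irradiated Balb/c replicate 3 and 0.173 without irradiated C57BL/6 replicate 3.

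Il10ra, the ligand-binding chain of the IL-10 receptor, had 11.04, 10.95 and 11.10 in irradiated Balb/c, against 11.78, 11.72 and 11.50 in sham Balb/c mice, a change of -0.64 ± 0.15 (limma, adjusted p = 0.0306). In irradiated C57BL/6 mice it had 10.92, 11.23 and 10.83, against 11.04, 11.42 and 11.06 in sham C57BL/6 mice, and the groups overlapped. The average was -0.41 ± 0.10 (limma, adjusted p = 0.0241). Leaving out 1 array ended the call in 5 of 12 cases in Balb/c and 4 of 12 for the average, at adjusted p up to 0.106 and 0.0599, the highest each time with sham Balb/c replicate 1 left out. With the mean of all probe sets, the others being at the bottom of the scale, neither was called (-0.23 in Balb/c and -0.15 on average, adjusted p = 0.0952 and 0.0786). The Il10ra call in Balb/c was also lost with the 3' minus 5' covariate (adjusted p = 0.218), without the 2 arrays that stand apart (0.0846) and with no filter (0.0667). Stat3 was at -0.85 ± 0.25 on average (limma, adjusted p = 0.0463), but its next brightest probe sets gave -0.12 and -0.42, and the call was lost in 10 of 12 fits without 1 array (adjusted p up to 0.103, without sham Balb/c replicate 2). In the average of the strains the calls of Nek7, Traf6, Il1rap, Cflar, Map3k7, Il10ra and Stat3 were also lost with the 3' minus 5' covariate and without the 2 arrays that stand apart, and all but that of Nek7 with no filter. The immediate early sums given beside Zfp36 hold for these arrays too.

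**Figure D5:**
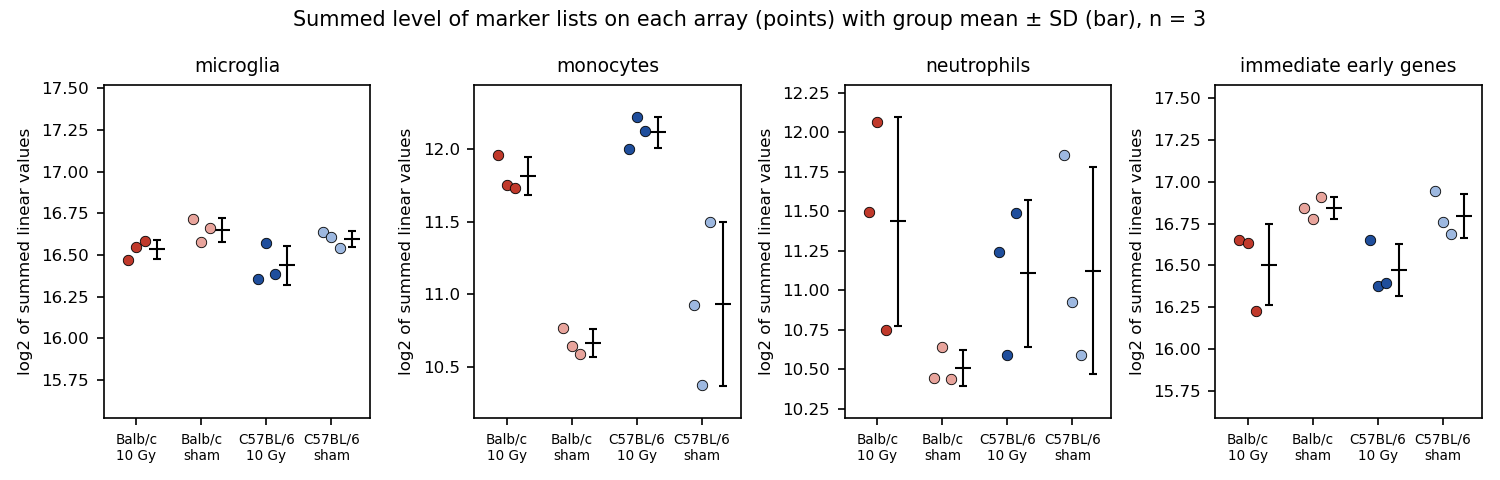
Summed signal of 4 marker lists on each array, as log2 of the sum of linear values (vertical axes), with the group mean ± SD beside the points (n = 3 per group). The microglial sum lies between 16.4 and 16.7, with a slightly lower mean after 10 Gy in both strains. The monocyte sum is higher and the immediate early sum lower after 10 Gy in both strains, and the neutrophil sum is higher after 10 Gy in Balb/c and overlaps in C57BL/6. Each panel has its own vertical range.

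For each member tested, the gene with the most similar profile was taken by Pearson's r of log2 values over the 12 arrays among all genes tested, as a description. These were Oaf for Il1a (r = 0.955), Ift57 for Il1b (0.944), B430306N03Rik for Tnf (0.900), Eif2s2 for Il18 (0.901), Ltv1 for Casp1 (0.900), Cd3eap for Nlrp3 (0.986), Lrrc8d for Tnfrsf1a (0.964) and Evl for Tnfrsf1b (0.954). The next 2 were Rbm45 and Ptp4a2 for Il1a, Naa20 and Mfge8 for Il1b, Ncoa7 and Hcar2 for Tnf, and Hps4 and Rxrb for Tnfrsf1b. They were Brd7 and Tmc6 for Il18, Gmeb1 and Oxsm for Casp1, Pigv and Ankrd54 for Nlrp3, and Safb and Pabpc1 for Tnfrsf1a. The r values ran from 0.881 to 0.986 over all of them, the 12 points share their strain and treatment groups, and the Nlrp3 profile is set largely by sham C57BL/6 replicate 1.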

How the data were processed

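The values deposited by the authors are on the log2 scale, for 45101 probe sets on 12 Affymetrix arrays. The submitters' processing notes name GCRMA (version not given in the sources used here). RNA passed 2 rounds of linear amplification and had an RNA integrity number above 7.4, per the labels' protocols. All arrays had the same sorted values, and no scanner files were used here. In the given annotation 34945 probe sets had 1 gene symbol, 932 several and 9160 none. Probe sets with several symbols named no gene.

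Each gene was represented by its brightest probe set on average, and 9120 of 18193 genes, above 5 in at least 3 arrays, were fitted in limma 3.58.1 (R 4.3.3; lmFit, eBayes, 1 mean per group, 8 residual degrees of freedom), with Benjamini-Hochberg adjustment per contrast over those genes. The 6 contrasts share arrays. The fit was tested on simulated data. All 10 members are named, other pathway genes when called (at most 4 per list and comparison, by smallest p), and 3 genes of most similar profile per member. Members and lists were chosen with earlier results of these data known. Deviations of same-numbered arrays from their group means correlated above 0.1 in all 3 pairs between the irradiated groups and not in all 3 pairs of any other groups. Over all pairs of groups 9 of 18 such correlations were above 0.1. The fit has no block, which was run as an alternative. Arrays limit the precision by their number, 3 mice a group. Alternatives covered the filter, normalization, floor, probe sets, variance model, groups fitted, the 3' minus 5' covariate, the replicate number and each array left out.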

Additional observations from a re-analysis of the deposited data

How the results depend on the processing

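Of 1082 refitted member values none reversed a called direction, 11 gained and 8 lost a call. In the average of the strains 1 member rather than 2 was called with no filter (Il1rn and Il10 are then tested too) and with the next-brightest probe set (Tnfrsf1b then falls under the filter). The same held with the 3' minus 5' covariate and without the 2 arrays that stand apart, and 1 to 3 were called when each array was left out. In C57BL/6 mice, with 0 called, 1 was called with the replicate block and 0 to 2 with 1 array left out. In Balb/c mice, with 0 called, Tnfrsf1b was called with the filter at 7 (adjusted p = 0.0469), with trend and robust eBayes (0.0339) and in the fit of the compared groups alone (0.0498), 1 each, and 0 to 1 with 1 array left out. Between strains in irradiated mice 0 were called with the 3' minus 5' covariate and 0 without the 2 arrays, against 1. In sham mice 2 were called with the replicate block. The labels give no shared litter, batch or day for a replicate number. Differently numbered arrays had correlations of deviations from -0.392 to 0.203 over 36 pairs. Same-numbered arrays had correlations of deviations from -0.048 to 0.447 over all pairs of groups, 9 of 18 over 0.1. Between the irradiated groups all 3 were (0.217, 0.447 and 0.323), and in that comparison the block changed no member's call. For the other pairs of groups at least 1 of 3 was under 0.1. With the number as a block Il1b was called in C57BL/6 (adjusted p = 0.0369), in the average (0.0177) and between strains in sham mice (0.0227), its log2 values unchanged, no other member gained or lost a call, and limma called 378 genes in C57BL/6, 580 in Balb/c and 1394 in the average. Over the alternatives the calls among all genes ran from 96 to 434 in C57BL/6 (335 in the fit reported), 104 to 681 in Balb/c (561), 788 to 1526 in the average (1447), 2 to 10 for the difference of the changes (7), 336 to 903 between irradiated strains (818) and 681 to 1020 between sham strains (954). Of 494 refitted values of called pathway genes 132 lost the call. The causes of these changes were not tested. A fit of the compared groups alone has no counterpart for the average. Probe sets at the bottom of the scale limit what can be said of Il1rn and Il10.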
